A study of Mus musculus with 6 samples.

Results

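Transcripts of 10 genes for cardiac transcription factors and their partners were read in the right atrium (RA) of juvenile mice, namely Nkx2-5, Hopx, Gata4, Gata6, Tbx5, Tbx20, Srf, Myocd, Mef2c and Nr2f2. The genes were taken by symbol from a table of 54093 genes, where each symbol stood in 1 row. All 10 were among the 12627 genes with a mean of at least 1 FPKM (fragments scaled to gene length and to library size), which is the level from which genes were tested. The mice were wild-type C57BL/6 pups of either sex, with no transgene or deletion in any group. The volume overload (VO) group had an aortocaval fistula (ACF), a puncture that joins the abdominal aorta to the inferior vena cava, made at postnatal day 7 (P7). The sham group had sham surgery at the same age, and RA myocardium of 3 sham and 3 VO libraries was collected at P21. The libraries are called sham 1 to sham 3 and VO 1 to VO 3. The sources do not say whether a library is 1 animal or a pool, so the p-values measure the spread between these samples.

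These factors form the core regulatory network of heart muscle. GATA4 and GATA6 are zinc-finger proteins, NKX2-5 and HOPX are homeodomain proteins, and TBX5 and TBX20 belong to the T-box family. SRF and MEF2C are MADS-box proteins, of which SRF binds the CArG box in the promoters of contractile genes and early-response genes. Myocardin, the product of Myocd, does not bind DNA by itself and acts as a coactivator of SRF. HOPX lacks the DNA contacts of other homeodomains and modulates SRF-dependent transcription. NR2F2, also named COUP-TFII, is a nuclear receptor that sets atrial identity in cardiomyocytes and venous identity in endothelium.

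Between 15963082 and 17237903 fragments per library lay on genes, and each of the 10 genes had between 871 and 11036 fragments in each library. The atrial genes Myl7 and Nppa were read at 2586 to 8501 and 1026 to 5513 FPKM, while the ventricular gene Myl2 ranged from 1.54 FPKM in VO 2 to 60.4 FPKM in sham 1. The VO libraries differed from each other in markers of other cells. In VO 1 the summed level of 9 immune markers was 1188 FPKM, against 200.1 to 312 FPKM in the other 5 libraries. In VO 3 the summed level of 6 adipocyte markers was 511 FPKM, against 34.0 to 46.9 FPKM elsewhere, and Ucp1, a gene of brown fat, was listed at 0 in all libraries but VO 3, where it had 254 FPKM. The summed level of 4 red cell markers was 8196 FPKM in VO 1 and 6515 FPKM in sham 1, against 671 to 2229 FPKM in the other 4 libraries. The summed level of 6 thymus markers was 2.31 FPKM in VO 1 and 1.42 FPKM in VO 3, against 0.165 to 0.654 FPKM elsewhere, with the thymic epithelial gene Foxn1 at 0 in every library. The summed level of 8 skeletal muscle markers was 0.974 to 2.80 FPKM, with Myh1, Myod1 and Myog at 0 in every library. The part of these cells in the differences between groups was not tested.

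Transcripts of Hopx, Srf and Nkx2-5 were lower in each VO library than in any sham library, at 62.0%, 66.9% and 72.8% of the sham mean. Gata4, Gata6, Tbx20 and Mef2c had VO means between 93.6% and 111% of the sham mean, with overlapping libraries. Tbx5 and Myocd had lower means and Nr2f2 a higher mean in VO, with intervals that included 0. None of the 10 passed an adjusted p of 0.05 in limma's test across all genes, where their adjusted p ran from 0.344 to 0.866. The groups of 4 genes did not overlap, all lower in VO, and the same was true of 12.9% of all tested genes in that direction and of 8.25% in the other. By the unadjusted p of limma, 3 of the 10 were under 0.05 and lower in VO and none was higher, where the background was 8.08% lower and 3.89% higher. The number under 0.05 was 3 without VO 1 or without VO 3, 4 without sham 1 and 5 without VO 2. On the TPM scale, where the FPKM of a library are divided by their sum, Hopx alone of the 10 was lower in VO without overlap, and none of the 10 was when libraries were centred on cardiomyocyte markers. After adjustment, 1 gene of all tested, or 0.00792%, was left. This was Nppb, which encodes B-type natriuretic peptide, at 566 ± 34.9 FPKM in sham and 145 ± 23.2 FPKM in VO (SD, n = 3 each, limma's adjusted p = 0.0419), and with any 1 of the 6 libraries left out no gene passed. The median log2 difference of the 10 genes was -0.17, beside -0.01 over all tested genes. In bulk tissue, fewer cells of a type and less RNA per cell cannot be told apart.

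**Figure D1:**
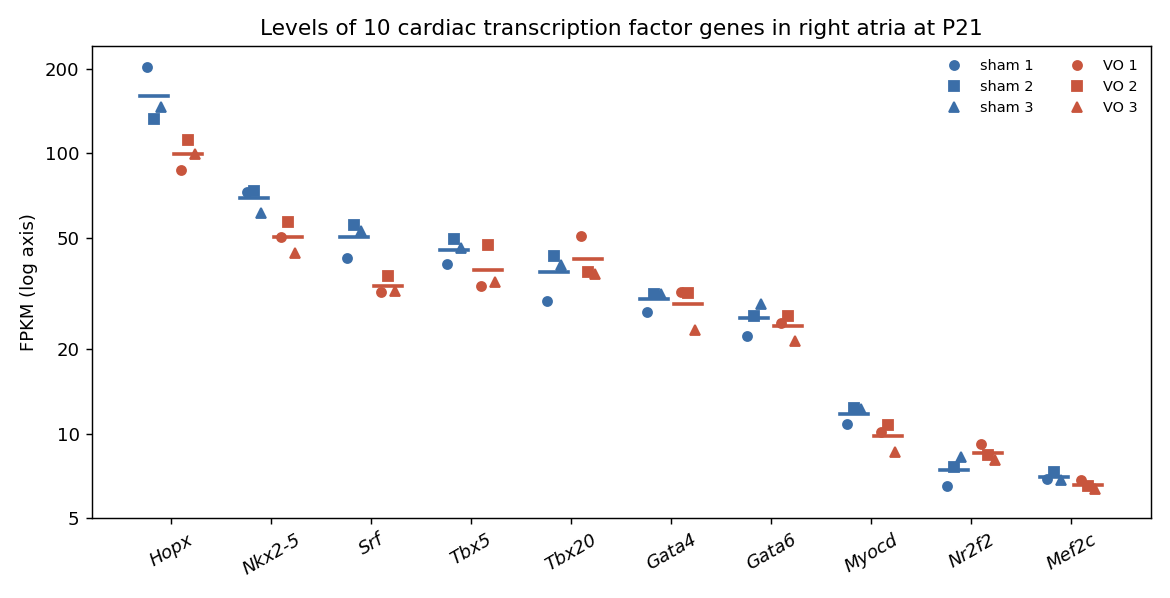
FPKM on a log axis for the 10 genes in the 3 sham libraries (blue) and the 3 VO libraries (red), with marker shape for the replicate number and a line for the mean of each group. The VO points of Hopx, Nkx2-5 and Srf lie under every sham point, while the points of Gata4, Gata6, Tbx20 and Mef2c overlap.

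Srf and Hopx held CArG boxes in their promoter windows, and the windows of the 3 genes with the lowest p are shown to print these sites. Windows of 300 bases, from 250 before to 50 after a transcript start, were at hand from RefSeq (GRCm38.p6) for 6 of the 10 genes, Hopx, Mef2c, Nkx2-5, Nr2f2, Srf and Tbx20. The windows lie at chr17:46556113-46556412 for Srf, at chr5:77115074-77115373 for the upstream start of Hopx and at chr17:26841516-26841815 for Nkx2-5, all on the minus strand. They are written 5′ to 3′ along the gene, with CArG boxes in capitals.
Srf: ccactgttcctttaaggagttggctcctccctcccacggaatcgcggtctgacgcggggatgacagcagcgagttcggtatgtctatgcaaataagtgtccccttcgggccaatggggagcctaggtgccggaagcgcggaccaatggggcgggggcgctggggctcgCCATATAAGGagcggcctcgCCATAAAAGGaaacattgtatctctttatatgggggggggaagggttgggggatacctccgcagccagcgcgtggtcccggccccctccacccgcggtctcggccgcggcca
Hopx: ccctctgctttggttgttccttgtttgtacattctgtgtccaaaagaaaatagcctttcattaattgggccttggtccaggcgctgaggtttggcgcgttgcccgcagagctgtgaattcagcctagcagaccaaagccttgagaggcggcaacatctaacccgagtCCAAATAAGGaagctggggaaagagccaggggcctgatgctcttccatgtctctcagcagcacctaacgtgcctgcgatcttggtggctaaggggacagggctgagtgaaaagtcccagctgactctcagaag
Nkx2-5: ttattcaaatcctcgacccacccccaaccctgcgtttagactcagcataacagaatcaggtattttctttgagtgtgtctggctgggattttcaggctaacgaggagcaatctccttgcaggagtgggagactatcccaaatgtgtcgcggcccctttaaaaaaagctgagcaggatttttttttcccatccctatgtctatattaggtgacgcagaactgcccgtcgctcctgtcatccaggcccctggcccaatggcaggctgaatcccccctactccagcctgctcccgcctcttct

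The Srf window held 2 CArG boxes, ccatataagg from 82 bases before the start and ccataaaagg from 62 bases before it. They lie at chr17:46556235-46556244 and chr17:46556215-46556224, outside Srf itself and in an intron of Gm26904, a noncoding gene on the other strand. The upstream window of Hopx held 1 box, ccaaataagg, from 83 bases before the start, at chr5:77115197-77115206, where GENCODE M21 has no gene. No CArG box was found in the windows of Nkx2-5, Tbx20, Nr2f2 or Mef2c. MEF2, GATA, T-box, NKX2 and COUP motifs were searched as well. Another Hopx window held an NKX2 site, and Mef2c windows held T-box and COUP sites. Over all windows, NKX2, T-box and COUP motifs were in 11.5%, 13.7% and 16.3%. Of all 32851 windows in the table, 1.63% held at least 1 CArG box and 6 windows held 2 or more. A match is a description of the letters in the window and shows no binding.

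Srf (ENSMUSG00000015605, chr17:46548329-46556175, minus strand) was read at 42.4, 55.4 and 52.9 FPKM in sham 1 to sham 3 and at 32.0, 36.6 and 32.3 FPKM in VO 1 to VO 3. The highest VO library lay 5.82 FPKM under the lowest sham library. The mean was 50.2 ± 6.89 FPKM in sham and 33.6 ± 2.57 FPKM in VO (SD, n = 3 each). The log2 difference was -0.57 with a standard error of 0.13 (95% confidence interval -0.89 to -0.25, unadjusted p = 0.00369, limma's adjusted p = 0.344). Among 788 tested genes that the table assigns to a family of transcription factors, Srf had the fifth smallest p. Of those genes 3.55% were lower and 5.08% higher in VO at an unadjusted p under 0.05, with a median log2 difference of 0.07.

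Myocd (ENSMUSG00000020542, chr11:65176561-65269989, minus strand) was read at 10.8, 12.3 and 12.3 FPKM in sham and at 10.1, 10.7 and 8.58 FPKM in VO. The groups did not overlap, but VO 2 lay only 0.0742 FPKM under sham 1. VO differed from sham by -0.27 on the log2 scale with a standard error of 0.12 (95% confidence interval -0.55 to 0.019, limma's adjusted p = 0.422). Within each library, Srf was 3.92 to 4.50 times as abundant as its coactivator in sham and 3.16 to 3.76 times in VO, in FPKM. These ratios did not overlap, and the pair was chosen after its values were seen. Of the other ratios computed, Srf to Mef2c and Nkx2-5 to Gata4 did not overlap either. Those of Tbx20 to Tbx5, Gata4 to Gata6, Hopx to Nkx2-5, Hopx to Srf and Srf to Nkx2-5 overlapped.

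Mef2c (ENSMUSG00000005583, chr13:83504034-83667080, plus strand), the other MADS-box gene, had the lowest FPKM of the 10 and the narrowest spread. It was read at 6.86, 7.32 and 6.83 FPKM in sham and at 6.84, 6.52 and 6.34 FPKM in VO, and VO 1 overlapped the sham range. On the log2 scale VO stood at -0.09 against sham (95% confidence interval -0.31 to 0.13, limma's adjusted p = 0.653). Its paralogues Mef2a and Mef2d were read at higher FPKM, at 24.0 ± 0.930 and 25.9 ± 3.73 FPKM in sham and 24.1 ± 1.36 and 26.9 ± 1.60 FPKM in VO (SD, n = 3 each), with differences of 0.01 and 0.06 on the log2 scale.

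Hopx (ENSMUSG00000059325, chr5:77086988-77115121, minus strand) had the highest FPKM of the 10. Sham 1 to sham 3 had 203, 132 and 146 FPKM, and VO 1 to VO 3 had 87.6, 111 and 99.9 FPKM. Sham 1 stood above the other sham libraries, and the nearest libraries of the groups, sham 2 and VO 2, were 20.9 FPKM apart. The mean was 161 ± 37.7 FPKM in sham and 99.7 ± 11.9 FPKM in VO (SD, n = 3 each). The log2 difference was -0.67 with a standard error of 0.19 (95% confidence interval -1.11 to -0.23, unadjusted p = 0.00883, limma's adjusted p = 0.390). Without sham 1 it was -0.49, with an unadjusted p of 0.0151 in limma's fit. The antisense gene Hopxos, at 0.360 FPKM over the 6 libraries, overlaps Hopx, and no source states that the counting used strand.

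Nkx2-5 (ENSMUSG00000015579, chr17:26838664-26841565, minus strand), among the earliest markers of cardiac progenitors, was read at 72.8, 73.5 and 61.5 FPKM in sham and at 50.5, 56.8 and 44.1 FPKM in VO. VO 2 came within 4.74 FPKM of sham 3, and the groups did not overlap. The mean was 69.2 ± 6.71 FPKM in sham and 50.4 ± 6.33 FPKM in VO (SD, n = 3 each). The log2 difference was -0.46 with a standard error of 0.14 (95% confidence interval -0.78 to -0.14, unadjusted p = 0.0115, limma's adjusted p = 0.404). Among 28 tested homeobox genes, 3 were lower at an unadjusted p under 0.05 (Hopx, Nkx2-5 and Six5) and 1 was higher (Hhex). Of all tested genes, 8.08% were lower and 3.89% higher at that p. The study tested these same libraries with DESeq2 at an adjusted p under 0.05. From terms enriched among the genes it called lower in VO, it picked Srf, Nkx2-5 and Hopx for its PCR panel. It reported all 3 as lower in VO by PCR. Their direction in the libraries is not independent of that choice.

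The GATA factors were read at like levels in both groups. Gata4 (ENSMUSG00000021944, chr14:63198922-63271692, minus strand) had 27.2, 31.6 and 31.6 FPKM in sham and 32.1, 31.6 and 23.5 FPKM in VO. VO 3 was the lowest of the 6 libraries, and VO 1 the highest. On the log2 scale the difference was -0.06 (95% confidence interval -0.42 to 0.30, limma's adjusted p = 0.866), and without VO 3 it was 0.09. Within each library, the ratio of Nkx2-5 to Gata4 was 1.95 to 2.68 in sham and 1.57 to 1.88 in VO, a pair chosen after its values were seen.

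Gata6 (ENSMUSG00000005836, chr18:11052508-11085635, plus strand) had 22.3, 26.3 and 29.1 FPKM in sham and 24.8, 26.3 and 21.5 FPKM in VO. The libraries were interleaved, and the log2 difference was -0.09 (95% confidence interval -0.42 to 0.23, limma's adjusted p = 0.758). Over the 6 libraries, Gata4 and Gata6 had the closest profiles of any pair among the 10, with a root-mean-square difference of 0.09 on the log2 scale. The intervals of both genes leave room for a difference of up to 0.42 on the log2 scale in the lower direction. Gata6 overlaps 1010001N08Rik on the other strand, which had a mean of 3.70 FPKM. Of the relatives, Gata2 and Gata5 were at 6.42 ± 1.28 and 2.23 ± 0.579 FPKM in sham (SD, n = 3 each) and had log2 differences of -0.18 and -0.13.

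The T-box genes differed from each other in direction. Tbx5 (ENSMUSG00000018263, chr5:119832668-119885219, plus strand), a partner of GATA4 and NKX2-5 in atrial and conduction gene programmes, was read at 40.4, 49.5 and 45.9 FPKM in sham and at 33.7, 47.0 and 34.9 FPKM in VO. VO 1 and VO 3 lay under every sham library, while VO 2 lay within the sham range. Its log2 difference was -0.24 (95% confidence interval -0.62 to 0.13, limma's adjusted p = 0.506), and without VO 2 it was -0.39, with an unadjusted p of 0.0249.

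Tbx20 (ENSMUSG00000031965, chr9:24718138-24774303, minus strand) was read at 29.7, 43.2 and 40.1 FPKM in sham and at 50.7, 37.7 and 37.2 FPKM in VO. Sham 1 was the lowest and VO 1 the highest library, and the other 4 lay between 37.2 and 43.2 FPKM. Its log2 difference was 0.15 (95% confidence interval -0.29 to 0.60, limma's adjusted p = 0.706), and without sham 1 it was -0.0077. Of the other T-box genes, Tbx18 was at 3.48 ± 0.766 FPKM in sham and 5.34 ± 1.41 FPKM in VO (SD, n = 3 each), with an unadjusted p of 0.0477 and an adjusted p of 0.414 in limma. Its groups overlapped, with VO 2 at 3.72 FPKM under sham 2 at 4.19 FPKM. Tbx3 was at 1.93 ± 0.372 and 2.02 ± 0.521 FPKM (SD, n = 3 each), with overlap and a log2 difference of 0.05. Tbx2 had 2.90 ± 0.277 and 3.58 ± 0.250 FPKM (SD, n = 3 each), without overlap and with an adjusted p of 0.414 in limma.

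Nr2f2 (ENSMUSG00000030551, chr7:70351944-70366735, minus strand) was read at 6.49, 7.58 and 8.22 FPKM in sham and at 9.16, 8.41 and 8.07 FPKM in VO. VO 3 lay under sham 3, so the groups overlapped by these libraries. The difference was 0.20 on the log2 scale (95% confidence interval -0.083 to 0.49, limma's adjusted p = 0.480). Its relatives Nr2f1 and Nr2f6 were at 3.71 ± 0.524 and 7.80 ± 1.42 FPKM in sham (SD, n = 3 each). Their log2 differences were 0.02 and -0.33, with overlapping groups. The summed level of 8 markers of venous and lymphatic endothelium, where Nr2f2 is also expressed, was 90.0 to 108 FPKM in sham and 106 to 113 FPKM in VO, and the part of these cells in the Nr2f2 level was not tested.

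FPKM is per length, so an order of genes by FPKM depends on the length assigned to each gene. In sham this order was Hopx, Nkx2-5, Srf, Tbx5, Tbx20, Gata4, Gata6, Myocd, Nr2f2 and Mef2c, with 22.9-fold between the means of Hopx and Mef2c. Mef2c, the longest of the 10 at 15715 bases, had 1639 to 1983 fragments in a library. Myocd and Nr2f2 had fewer, at 907 to 1363 and 871 to 1433. Neighbours whose sham libraries did not overlap were Hopx and Nkx2-5, Nkx2-5 and Srf, Gata6 and Myocd, and Myocd and Nr2f2. The remaining neighbours overlapped. In VO, Srf stood after Tbx20 and Tbx5 in the order, but all neighbours from Nkx2-5 to Gata6 overlapped there. Among the 788 tested transcription factor genes, Hopx had the second highest FPKM in sham, Nkx2-5 the 6th and Srf the 14th.

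The libraries also differed in the level of heart muscle genes. The summed level of 10 cardiomyocyte markers was 11887 to 15599 FPKM in sham and 6064 to 10932 FPKM in VO, and all 10 had lower means in VO, 6 of them with an unadjusted p under 0.05. Over all tested genes, 51.5% had a lower mean and 8.08% were lower at that p. With quantile normalization 1 of the 10 markers was under it. The number was 2 without sham 3, 3 without sham 1, sham 2, VO 1 or VO 3, and 8 without VO 2. The mean log2 level of these markers stood 0.84 below the sham mean in VO 1, 0.21 below it in VO 2 and 0.50 below it in VO 3. Srf, Hopx and Nkx2-5 were nearest to sham in VO 2 as well. When each library was centred on the 10 markers, the log2 difference was -0.16 for Hopx, -0.06 for Srf and 0.05 for Nkx2-5, with intervals that included 0. On that scale the median of all tested genes moved to 0.50, and Tbx20 and Nr2f2 stood at 0.67 and 0.72, with adjusted p of 0.106 and 0.101 in limma. The part of cardiomyocyte content in the difference between groups was not tested.

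**Figure D2:**
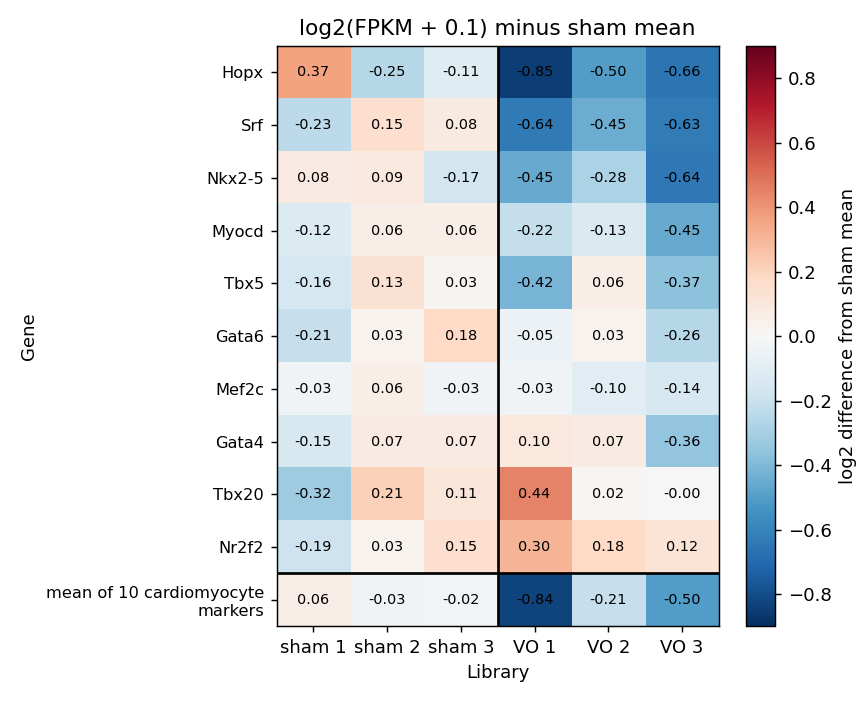
Difference of log2(FPKM + 0.1) from the sham mean for the 10 genes (rows) in the 6 libraries (columns), with the mean of 10 cardiomyocyte markers in the bottom row. Hopx, Srf and Nkx2-5 are below 0 in all 3 VO libraries, as is the marker row, which reads -0.84, -0.21 and -0.50.

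**Figure D3:**
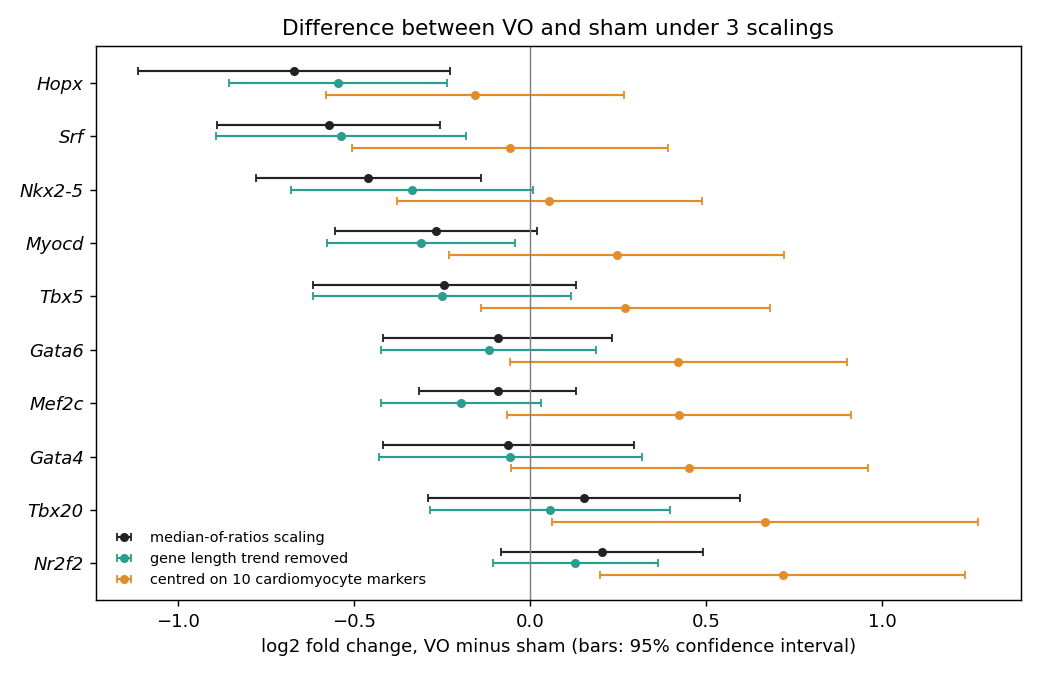
Log2 difference of VO minus sham with its 95% confidence interval for the 10 genes after median-of-ratios scaling (black), with the trend by gene length removed in each library (green), and centred on 10 cardiomyocyte markers (orange). Centring moves every gene to the right, and the intervals of Hopx, Srf and Nkx2-5 then include 0.

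The 3 genes with the lowest p were also the 3 shortest of the 10, at 1516 bases for Hopx, 1525 for Nkx2-5 and 2893 for Srf, where the rest had 3904 to 15715 bases. Across all tested genes the log2 difference moved with length, which was looked at after the values were seen. In 5 bins of equal size, from the shortest to the longest genes, its median was -0.17, -0.09, -0.01, 0.02 and 0.08, and the share of genes lower at an unadjusted p under 0.05 was 15.4%, 10.7%, 7.05%, 4.64% and 2.65%. The bin of the shortest genes stood at a median of 0.19 in sham 1 and at -0.28 in VO 1, beside -0.13 to -0.09 in the other 4 libraries. After the trend with length was removed from each library, the log2 difference was -0.55 for Hopx (unadjusted p = 0.00417) and -0.54 for Srf (unadjusted p = 0.00904) in limma's fit. Nkx2-5 was at -0.34 (unadjusted p = 0.0547) and Myocd at -0.31 (unadjusted p = 0.0284) in the same fit. With the trend by expression level removed as well, Hopx was at -0.39, Srf at -0.42 and Nkx2-5 at -0.21, with unadjusted p of 0.0110, 0.0333 and 0.251.

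**Figure D4:**
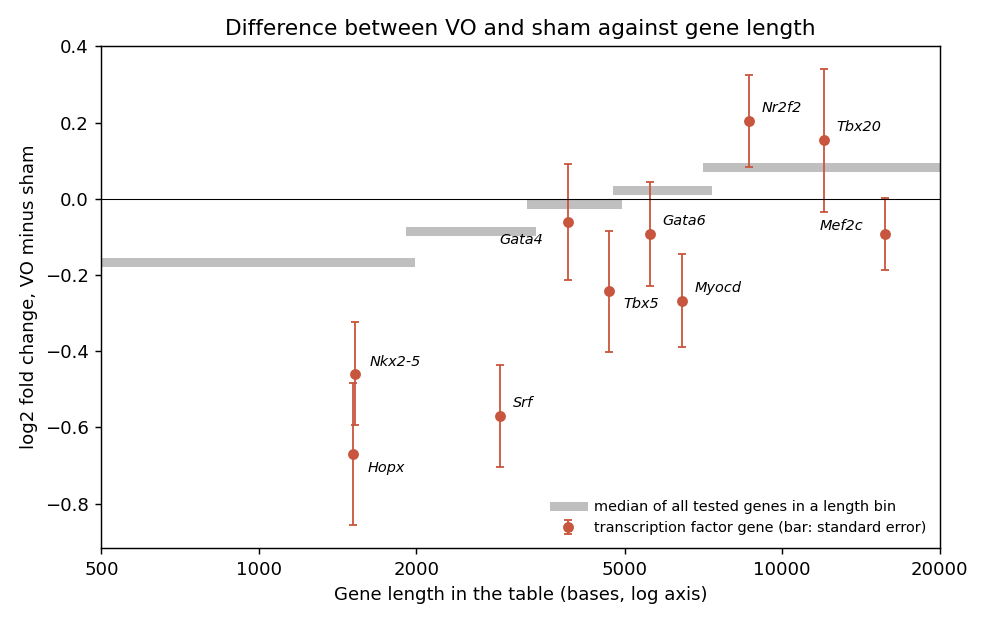
Log2 difference of VO minus sham against gene length on a log axis for the 10 genes, with their standard errors, over grey bars for the median of all tested genes in each of 5 bins of gene length. Hopx, Nkx2-5 and Srf lie left and below, each under the grey bar of its bin, which reads -0.17, -0.17 and -0.09.

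Genes known as targets of these factors were read from lists. Their counts stand beside the shares over all tested genes, of which 51.5% had a lower mean, 8.08% were lower and 3.89% higher in VO at an unadjusted p under 0.05. With libraries centred on cardiomyocyte markers, 0.459% of all tested genes were lower and 41.2% higher at that p. Of 32 tested contractile and cytoskeletal genes of the SRF programme, 24 had a lower mean in VO, 12 of them (37.5%) with an unadjusted p under 0.05, and none was higher at that level. The median log2 difference was -0.28. On the TPM scale 9 were lower and 2 higher at that p, with quantile normalization 7 and 2, and with centring 3 and 6. Cardiac alpha-actin (Actc1), the main actin of heart muscle, was at 5820, 5503 and 6446 FPKM in sham and 2645, 3776 and 3484 FPKM in VO, a log2 difference of -0.86 (limma's adjusted p = 0.373). Smooth muscle alpha-actin (Acta2) was at 164 ± 33.3 FPKM in sham and 83.9 ± 25.8 FPKM in VO, and calponin 2 (Cnn2) at 28.4 ± 3.27 and 18.4 ± 0.642 FPKM (SD, n = 3 each). The groups did not overlap for these 3 genes, and none passed after adjustment. On the scale centred on cardiomyocyte markers the median of this list was 0.24.

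Of the 27 genes of this list with a promoter window, 9 held a CArG box there. Their boxes are shown in capitals with 10 bases on either side, 5′ to 3′ along the gene, to set the sites beside the values. For Fhl2, which has windows at more than 1 start, the site nearest to a start is given.
Myl9: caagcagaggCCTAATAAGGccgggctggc
Actc1: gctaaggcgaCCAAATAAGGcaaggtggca
Acta1: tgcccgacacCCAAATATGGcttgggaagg
Fhl2: gcgcgtgtgtCCTTATATGGtcaaatgact
Cnn2: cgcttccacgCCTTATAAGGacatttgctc
Vcl: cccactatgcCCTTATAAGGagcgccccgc
Dmd: catgggcagtCCTATTATGGgaaagcaact
Fhl1: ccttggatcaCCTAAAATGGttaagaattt
Actg1: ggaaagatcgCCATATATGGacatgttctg

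Myl9, Actc1, Fhl2 and Cnn2 of these had an unadjusted p under 0.05 and log2 differences of -1.10, -0.86, -0.63 and -0.62, while Acta1, Vcl, Dmd, Fhl1 and Actg1 ran from -0.74 to 0.26 and did not reach it. The sites of the named genes lie at chr2:156775293-156775322 for Myl9, chr2:114052903-114052932 for Actc1, chr1:43163973-43164002 for Fhl2 and chr10:79988534-79988563 for Cnn2 (GRCm38.p6). The Fhl2 site lies in an intron of a longer Fhl2 transcript, that of Actc1 in introns of Actc1 and of A530058N18Rik, and those of Myl9 and Cnn2 at positions without an annotated gene. Of all tested genes with a CArG box in a window, 23 of 152 were lower in VO at an unadjusted p under 0.05, or 15.1%, and 7 were higher, beside 7.92% lower and 3.64% higher of the 9177 tested genes with any window. The 23 include Srf and Hopx themselves, and Myl9, Actc1, Fhl2 and Cnn2. The share was not particular to CArG boxes. Of 64 tested genes with a MEF2 motif in a window, 14.1% were lower at that p and none was higher. The shares lower for GATA, T-box, NKX2 and COUP motifs were closer to that of genes with any window. The 152 genes and the 9177 genes had median lengths of 4359 and 4375 bases. With the length trend removed, 17.8% of the CArG genes were lower and 3.95% higher, beside 8.52% and 3.57%. On the TPM scale 10.5% were lower and 13.8% higher, beside 3.44% and 8.36%, so that more CArG genes were higher than lower there. Centred on cardiomyocyte markers, 1.32% were lower and 35.5% higher, beside 0.240% and 41.9%.

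Early-response genes of SRF were measured for 9 genes of a list that includes Srf itself, and Srf, Ctgf and Nr4a1 were lower at an unadjusted p under 0.05. Ctgf, a matricellular protein gene, was at 214, 204 and 278 FPKM in sham and 77.2, 160 and 129 FPKM in VO. The median of this list was -0.05, and 0.09 on the TPM scale. Among 23 targets of GATA, NKX2-5 and T-box factors, 19 had a lower mean and 11 (47.8%) an unadjusted p under 0.05, beside 51.5% and 8.08% of all tested genes, with a median of -0.43. The 11 became 5 without VO 1, VO 3, sham 1 or sham 3, 7 without sham 2 and 12 without VO 2. They became 5 with the replicate block, 4 with quantile normalization and 8 on the TPM scale. With the length trend removed they became 13, and 7 with the expression trend removed as well. With centring, 1 was lower and 2 were higher at that p. Besides Nppb, the list names Slc8a1, the sodium-calcium exchanger, at 52.9 ± 0.823 FPKM in sham and 39.3 ± 2.78 FPKM in VO, and Mybpc3, a thick-filament protein gene, at 210 ± 9.44 and 141 ± 18.8 FPKM (SD, n = 3 each). Tnnt2, cardiac troponin T, was at 441 ± 38.4 and 299.7 ± 77.1 FPKM (SD, n = 3 each). A list of 16 MEF2 targets includes 1 of the 10 factors. Of the 16 targets 15 had a lower mean, 9 (56.3%) with an unadjusted p under 0.05, beside 51.5% and 8.08% of all tested genes. Mef2c itself was at 93.8% of its sham mean. The 9 became 5 on the TPM scale and with quantile normalization, and with centring 1 was lower and 1 higher. They became 10 with the length trend removed, and 6 to 12 with 1 library left out. The median of this list was -0.45, and its named genes were Ckm, Hspb7, Ldb3, Xirp2 and Myom1, at log2 differences of -0.95, -0.80, -0.50, -0.48 and -0.44. When centred on cardiomyocyte markers, both lists had a median above 0, at 0.08 and 0.07. Several listed targets are also cardiomyocyte markers or stand in more than 1 list.

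**Figure D5:**
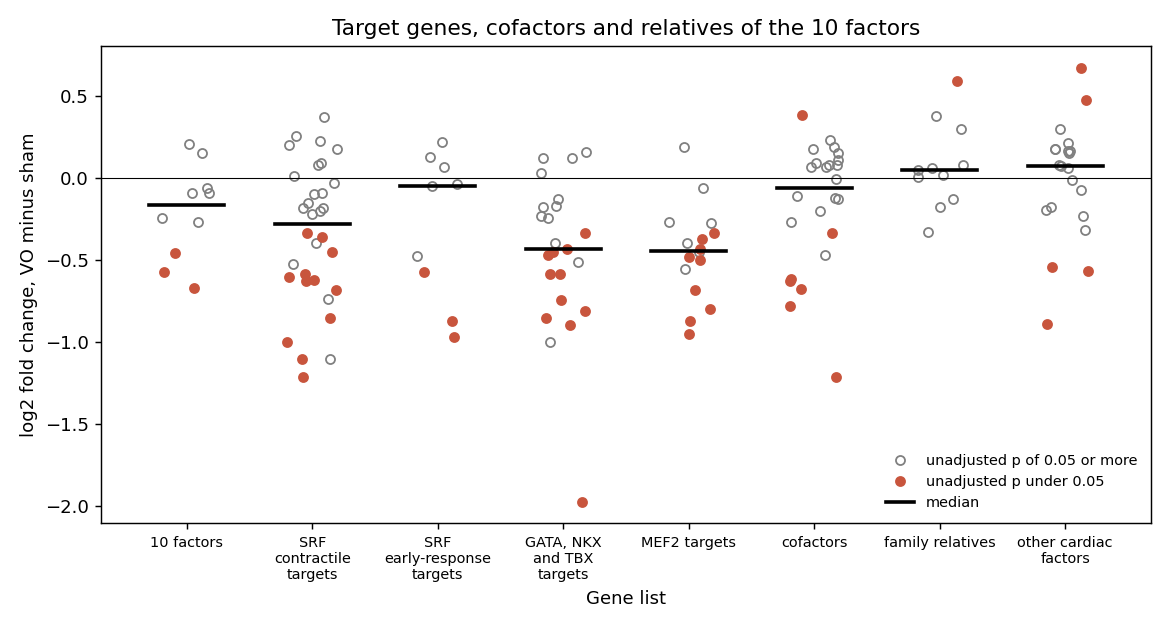
Log2 difference of VO minus sham for the 10 factors and for the tested genes of 7 lists, 1 point a gene, filled red where the unadjusted p of limma is under 0.05, with a black line at the median. The 3 lists of contractile, GATA, NKX and TBX, and MEF2 targets have medians of -0.28, -0.43 and -0.45, and the relatives and other cardiac factors have medians of 0.05 and 0.07.

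Partners of the 10 factors were read in the same way. Of 24 tested cofactors, 6 (25.0%) were lower and 1 (4.17%) higher in VO at an unadjusted p under 0.05, beside 8.08% and 3.89% of all tested genes, with a median of -0.06. Centred on cardiomyocyte markers, 1 was lower and 11 were higher, with a median of 0.45. Ankrd1, a stretch-responsive ankyrin repeat protein of the sarcomere and nucleus, was at 1731, 1645 and 2045 FPKM in sham and 942, 648 and 766 FPKM in VO, a log2 difference of -1.21 (limma's adjusted p = 0.275). The LIM-domain genes Csrp3 and Fhl2 were at 245 ± 35.2 and 243 ± 22.6 FPKM in sham and 143 ± 22.7 and 157 ± 18.7 FPKM in VO (SD, n = 3 each). Abra, an actin-binding activator of SRF signalling, and Smyd1, a muscle methyltransferase, had log2 differences of -0.61 and -0.34, and Elk3, a ternary complex factor of SRF, one of 0.39. The myocardin-related coactivators Mkl1 and Mkl2 were counted with the relatives and not with the 24 cofactors. Mkl1 was at 2.63 ± 0.486 FPKM in sham and 3.43 ± 0.379 FPKM in VO (SD, n = 3 each), without overlap and with limma's adjusted p of 0.422. Mkl2 was at 7.11 ± 0.992 and 7.45 ± 0.0840 FPKM (SD, n = 3 each), with overlap and a log2 difference of 0.08.

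Of 21 other cardiac factors, 3 (14.3%) were lower and 2 (9.52%) higher in VO at an unadjusted p under 0.05, beside 8.08% and 3.89% of all tested genes. Without sham 1 these numbers were 1 and 1, and with centring 0 and 11. Hand2, a basic helix-loop-helix factor of the developing heart, was at 13.8, 12.1 and 12.8 FPKM in sham and 8.42, 9.47 and 8.53 FPKM in VO, a log2 difference of -0.54 (limma's adjusted p = 0.284). Klf15 and Esrra, regulators of cardiac metabolism, had log2 differences of -0.89 and -0.57. Tead4 and Foxp1 were higher, by 0.67 and 0.47 on the log2 scale, with adjusted p of 0.404 and 0.410 in limma. The groups did not overlap for these 5 genes.

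The genes nearest to each of the 10 in their pattern over the 6 libraries were found by the root-mean-square difference of centred log2 values. Nearest to Srf were Ldb3, a Z-disc protein gene, Myo18a and the filamin gene Flnc, at distances of 0.07, 0.08 and 0.09. Nearest to Hopx were the ribosomal protein gene Rpl28, the pseudogene Rps16-ps2 and Nt5e, at 0.05 to 0.06. Nkx2-5 was nearest to 2310058D17Rik, Fcho1 and Trp53rka, and Myocd to Mfsd12, the supervillin gene Svil and Aldh1l2. Tbx5 was nearest to Sec14l1, Tom1 and Cep41, Tbx20 to Ep400, Nup214 and Bicc1, and Nr2f2 to Exoc6b, Sox13 and Bmpr2. Gata4 was nearest to Adgra2, Slc38a1 and Lrrc42, Gata6 to Prdm11, Clasp1 and Fbxo10, and Mef2c to Phf20l1, Rexo1 and Fam135a.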

How the data were processed

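Right atrial RNA was sequenced by the authors in 3 sham and 3 VO libraries, made with the NEBNext Ultra kit and read as 150-bp pairs. Per the labels and the methods, reads were aligned with HISAT2 2.0.5 (GRCm38/mm10 is named) and counted per gene with featureCounts 1.5.0-p3, and the authors deposited FPKM from gene length and counts. The labels also name StringTie 1.3.3b, DESeq2 1.16.1 and GATK 3.7, whose output was not used here. Fragments were recovered from the steps of the FPKM values, which came out whole for 100% of values within 0.1. The deposited values already had a median-of-ratios factor of 1.00 in each library, so a library's sum differs (331122 to 414851 FPKM). The table held 1 incomplete line, which was left out.

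Genes with a mean of at least 1 FPKM were fitted as log2(FPKM + 0.1) with limma 3.58.1 in R 4.3.3 (lmFit, eBayes with trend), with the group as the only term. Tests were two-sided, and p-values were adjusted by Benjamini-Hochberg across the 12627 genes. A fold change on this scale is slightly understated for low genes. An exact permutation test of 3 against 3 libraries cannot give a p under 0.1. The members and lists were chosen with earlier results of these data known. Other genes were named where the unadjusted p was under 0.05 without overlap between groups, at most 5 a direction and list, besides relatives at 1 FPKM or more, the leading markers and the 3 nearest profiles. The ratios, length bins, promoter counts and removal of length and expression trends were chosen after the values were seen. Positions are those of the deposited table, which matched GENCODE M21 for 8 of 10 members, where Nkx2-5 and Gata6 differ in extent. Motifs were searched on both strands of RefSeq windows. Python 3.11.15 and matplotlib 3.10.9 were used for the figures.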

Additional observations from a re-analysis of the deposited data

How the results depend on the processing

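Hopx and Srf kept their direction under all 21 alternatives and an unadjusted p under 0.05 in limma under 20 of them, the exception being centring on cardiomyocyte markers. Nkx2-5 kept its direction under 20 and this p under 16, not on the TPM scale, with quantile normalization, with either removal of trends or with centring. Several of the 21 leave the log2 difference unchanged by construction, so their direction was fixed. These are the values as deposited, the fits without a variance trend or with robust variance, the other expression filters and the replicate block. The fit of the values as deposited is the same as the main fit. The number of the 10 genes with an unadjusted p under 0.05 was 3 to 5 with 1 library left out in turn, with 5 without VO 2 (Tbx5 and Myocd added) and 4 without sham 1 (Myocd added). Under centring on cardiomyocyte markers it was 2, both higher in VO (Tbx20 and Nr2f2). The number lower without overlap fell from 4 to 1 on the TPM scale and to 0 with centring. TPM moved the median of all tested genes from -0.01 to 0.13, and centring moved it to 0.50. Relative to these medians, the TPM values of Gata4, Gata6 and Mef2c, 0.078, 0.047 and 0.046, lay below. Centring gave 0.45, 0.42 and 0.42 for the same genes, and 0.25 for Myocd, 0.055 for Nkx2-5 and 0.27 for Tbx5, all with the sign turned. The sign of Gata4 also turned with quantile normalization (0.050), with length and expression trends removed (0.049) and without VO 3 (range with 1 library left out -0.14 to 0.086). Tbx20 was at -0.030 with array weights and between -0.0077 and 0.26 with 1 library left out.

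Of all tested genes, the 1 with an adjusted p under 0.05 became 7 with centring, 3 without a variance trend, 3 with a mean of at least 0.1 FPKM, 2 with a pseudocount of 1, and 0 with quantile normalization, robust variance, either removal of trends and any 1 library left out (0 to 0). The 1511 genes with an unadjusted p under 0.05 (1020 lower, 491 higher) were 5263 with centring (58 lower, 5205 higher) and 855 to 1998 with 1 library left out. On the TPM scale 486 were lower and 1085 higher. Libraries of the same replicate number did not deviate together (r across genes of -0.108, 0.0112 and -0.0292), and the main fit used no pairs. With 3 libraries a group, these values cannot exclude that libraries of the same number were handled together. With the replicate block, 932 genes had an unadjusted p under 0.05 (608 lower, 324 higher), 0 an adjusted one, and the same 3 of the 10 factors were under 0.05. The cause of these changes was not tested.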
